A study of Mus musculus with 15 samples.

Results

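The mucin-type glycosyltransferases and sulfotransferases are the enzymes that build, extend and cap the sugar chains of mucins, together with relatives that act on other glycans. Members were chosen by name: every array probe, control spots aside, whose gene name begins with Galnt, B3gnt, B4galnt, Gcnt, C1galt, St3gal, St6gal, Chst or Fut followed by a digit. The array carried 136 such probes of 76 genes. Of these, 99 probes of 59 genes were well above background, the scanner software's detection call, on at least 5 of the 15 arrays, and 98 probes of the same 59 genes entered the tests after 1 St6galnac2 probe with an outlier mark was left out. In all, 22012 genes were tested. The 59 members include 2 genes whose names mark no enzyme, the pseudogene Fut4-ps1 and the antisense RNA Galnt6os, which leaves 57 enzyme genes. A total of 49 members were well above background on every array.

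RNA came from scraped mucosa of the most distal 30 mm of the colon of female Balb/cJ mice, 1 mouse per 1-colour Agilent array. The water group had 5 mice that received no dextran sodium sulfate (DSS), which damages the colon lining when drunk. The DSS vehicle group had 5 mice that received 4% DSS in 3 cycles of 4 days, with washouts of 3 days, and the vehicle of filgotinib. The DSS filgotinib group had 5 mice on the same DSS schedule that were gavaged once daily with filgotinib, an inhibitor that prefers the kinase JAK1, at 30 mg/kg. The labels name no genetic change in any group, and DSS began at 8 weeks of age. For the water group the sample labels list a vehicle control as compound but the series text lists only drinking water, so whether these mice were gavaged is not settled.

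Mucin-type O-glycans start when a Galnt enzyme attaches N-acetylgalactosamine (GalNAc) to a serine or threonine of the mucin. C1galt1 then adds galactose to make core 1, or B3gnt6 adds N-acetylglucosamine (GlcNAc) to make core 3, which is characteristic of the colon, and Gcnt enzymes add branches. Chains are lengthened by B3gnt and galactosyltransferases and closed with sialic acid, fucose, GalNAc or sulfate, and these caps set much of how mucus meets bacteria and their enzymes.

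A few sequences identify what was measured. The fucosyltransferase genes Fut1 and Fut2 moved in opposite directions, and their probes are shown to make plain that each is a distinct sequence. Each probe has 60 bases, of which the first 30 are given, 5′ to 3′, with the mm9 coordinates of the array files. The probes of B3gnt6 and St3gal1, the other members with the clearest changes, follow.
Fut1 probe (chr7:52876318-52876377, plus strand): tattcccttccaagagcaacttctattctt
Fut2 probe (chr7:52905946-52906005, minus strand): tattcatctccagtcttcgtggttacaagc
B3gnt6 probe (chr7:105341054-105341113, minus strand): cttcatgttgtaaagccagatcactaggta
St3gal1 probe (chr15:66934515-66934574, minus strand): atcctcctgattggtctgaatgcatttcca
In the RefSeq annotation of GRCm38.p6, Fut1 and Fut2 lie on chromosome 7 with 27531 bases and 4 annotated genes between them. RefSeq promoter entries were matched for 41 of the 59 members, and the 250 bases before the gene start are shown for 4 called members (GRCm38.p6, 5′ to 3′). Because JAK1 acts through STAT factors, the windows were searched on both strands for TTCNNNGAA, the general STAT motif, and capitals mark a match.
Fut1 (chr7:45617356-45617605, plus strand): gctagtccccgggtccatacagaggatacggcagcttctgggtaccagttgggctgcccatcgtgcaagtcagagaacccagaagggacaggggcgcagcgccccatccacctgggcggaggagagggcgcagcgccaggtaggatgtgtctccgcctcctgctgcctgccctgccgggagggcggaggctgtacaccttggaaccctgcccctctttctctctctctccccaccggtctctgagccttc
C1galt1 (chr6:7844974-7845223, plus strand): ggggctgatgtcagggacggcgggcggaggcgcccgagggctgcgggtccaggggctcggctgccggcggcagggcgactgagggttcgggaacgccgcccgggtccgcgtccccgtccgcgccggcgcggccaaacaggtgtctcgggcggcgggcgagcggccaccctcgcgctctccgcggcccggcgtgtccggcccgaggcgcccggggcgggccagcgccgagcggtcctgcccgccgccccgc
Galntl6 (chr8:58911628-58911877, minus strand): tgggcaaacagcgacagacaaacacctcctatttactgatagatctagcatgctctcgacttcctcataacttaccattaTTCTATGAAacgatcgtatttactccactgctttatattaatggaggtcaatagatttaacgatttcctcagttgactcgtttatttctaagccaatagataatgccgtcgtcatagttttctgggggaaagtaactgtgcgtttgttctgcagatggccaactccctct
Gcnt2 (chr13:40886508-40886757, plus strand): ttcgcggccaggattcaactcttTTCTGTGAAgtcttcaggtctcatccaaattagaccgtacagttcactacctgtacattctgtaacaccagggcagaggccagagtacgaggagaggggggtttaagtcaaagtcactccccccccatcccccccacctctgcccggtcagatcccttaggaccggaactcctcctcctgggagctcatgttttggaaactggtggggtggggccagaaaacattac
Among all 32851 RefSeq windows of this length, 7.02% held TTCNNNGAA, and 2 of the 54 windows of members did, those of Galntl6 and of 1 Gcnt2 start. A match describes letters in a window and does not show binding.

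All values are log2 of the processed signal minus log2 of the 75th percentile of the same array, so 0 is the level of a probe at that percentile and 1 unit is a doubling. Levels are compared only within a probe, across mice. A gene rose or fell when limma, fitted over all 15 arrays and all 22012 genes, gave a Benjamini-Hochberg adjusted p under 0.05. The share of probes with signal well above background ran from 50.2% to 62.1% per array, and the 75th percentile of signal from 684 to 813 for the water group, 570 to 667 for DSS vehicle and 552 to 663 for DSS filgotinib. The arrays lay on 6 slides. Slide 4 held DSS vehicle mouse 2 with water mice 3 and 5, slide 2 held DSS vehicle mice 1, 4 and 5 with DSS filgotinib mice 1 and 2, and no slide held both DSS filgotinib and water mice.

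Markers of the labelled tissue were present: all 18 goblet cell markers and all 18 absorptive colonocyte markers listed, members left out, were measured. The summed goblet signal was 2580 to 3010 in water, 3080 to 3670 in DSS vehicle and 2950 to 3560 in DSS filgotinib mice, where the array's 75th percentile counts as 1. In DSS vehicle against water 8 of 18 goblet markers rose and 0 fell, beside 10.8% and 8.41% of all genes. With filgotinib 4 of 18 rose against water and 2 fell against DSS vehicle, beside 6.42% and 4.53% of all genes. Colonocyte markers summed to 1530 to 1940, 1770 to 2040 and 1670 to 2160 in the same order, and 6 of 18 rose and 2 fell with DSS. Crypt proliferation markers fell in DSS vehicle against water in 14 of 14 cases, beside 8.41% of all genes. Their sum was 57.3 to 101 in water, 22.9 to 46.2 in DSS vehicle and 36.2 to 62.8 in DSS filgotinib mice. The stem cell marker Lgr5 was not well above background in any DSS vehicle or DSS filgotinib mouse. Leukocyte markers, 20 of 24 measured and without Cd8a, Cd79a, Klrb1c and Cpa3, summed to 240 to 269, 277 to 315 and 241 to 291 in the same order. Of the 20 measured, 6 rose with DSS, beside 10.8% of all genes. Stromal markers summed to 27.5 to 53.7, 43.7 to 121 and 28 to 102, and squamous epithelium markers, 12 of 15 measured, to 14.2 to 16.8, 15.8 to 20.6 and 14.6 to 19.3. In scraped mucosa fewer cells of a type and less RNA per cell cannot be told apart, and the part of these shifts in the members' changes was not tested.

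The first comparison asked what the DSS cycles changed among the members. Of the 59 measured, 15 rose, or 25.4%, beside 10.8% of all genes tested, and 4 fell, or 6.78%, beside 8.41% of all genes. The median change of the members was 0.16 on the log2 scale and that of all genes 0.05, and 39 of 59 members had a positive estimate. The groups did not overlap for 15 members, which was also the case for 16.0% of all genes. By role the rises were 4 of 15 Galnt genes, both C1galt genes, 1 of 3 Gcnt and 1 of 8 B3gnt genes. The others were 1 of 4 B4galnt, 3 of 9 sialyltransferase, 2 of 8 Fut and 1 of 10 Chst genes. For B3gnt and Chst these shares are near the 10.8% of all genes, and the Chst rise rests on a dim probe of Chst10. The falls were 2 Fut, 1 sialyltransferase and 1 Chst gene. Scaling to a common median instead left 8 rises and 4 falls, so the share of rises among calls was 66.7% in place of 78.9%. Over all genes that scaling called 4.34% higher and 7.11% lower, and the share of rises was 37.9% in place of 56.1%. With the slide as a block, slide 4 was the only slide that held both groups, and it held 1 DSS vehicle mouse. That setting cannot decide whether a call holds. The calls of the members were lost there, as were those of most genes called in the series, so the loss is not particular to the members. All 19 called members kept the sign of their change.

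**Figure D1:**
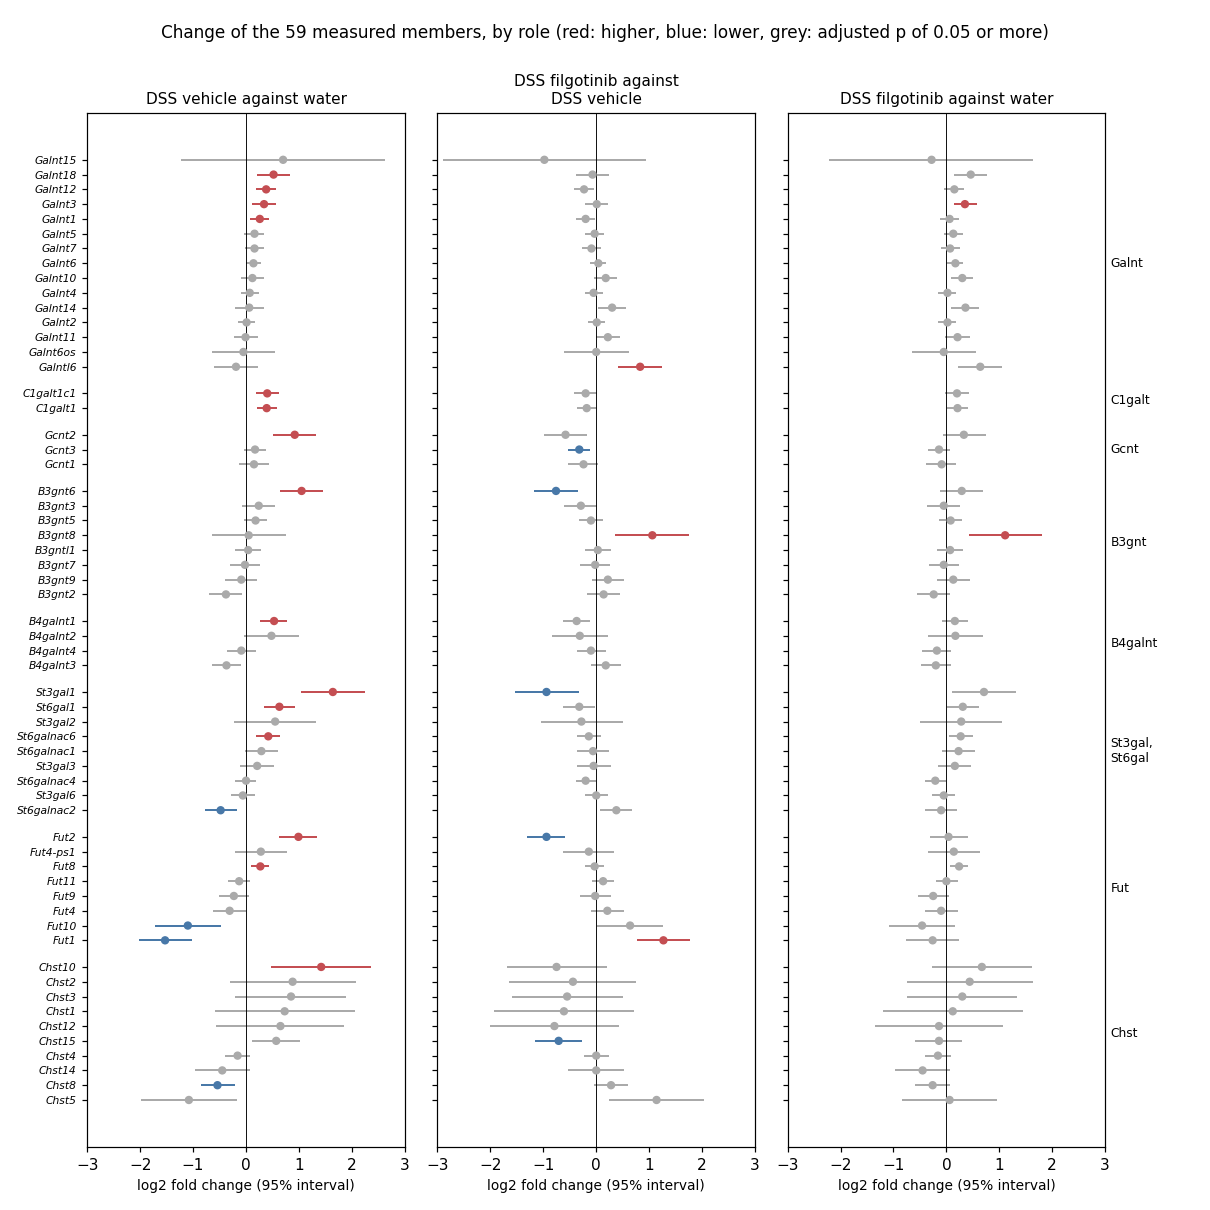
Log2 fold change (x axis, with 95% interval) of each of the 59 measured members (y axis, ordered by role) in DSS vehicle against water, DSS filgotinib against DSS vehicle and DSS filgotinib against water; red marks called rises, blue called falls and grey the rest. The first panel holds 15 red and 4 blue points, the second 3 red and 5 blue, and the third 2 red points, with Galnt15 and several Chst genes showing the widest intervals.

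Among the Galnt enzymes, which attach the first GalNAc, Galnt12, Galnt3, Galnt1 and Galnt18 rose in DSS vehicle mice, by 1.2-fold to 1.44-fold. Galnt12, a family member prominent in the gut, read 4.48, 4.36, 4.51, 4.49 and 4.35 in the 5 water mice (1 to 5 in order), 5.03, 4.77, 4.74, 4.87 and 4.68 in the DSS vehicle group and 4.49, 4.49, 4.47, 4.88 and 4.59 in the filgotinib group. Every DSS vehicle mouse lay above every water mouse, and of the filgotinib mice only mouse 4 reached the DSS vehicle range. Its rise was 0.38 ± 0.09 (log2, SE; limma adjusted p = 0.00927), or 1.3-fold, and the difference within slide 4 was 0.34. Galnt18 read -1.63, -1.35, -1.84, -2.18 and -2.10 in the water group and -1.15, -1.32, -1.39, -1.48 and -1.14 in DSS vehicle mice, a rise of 0.52 ± 0.15 (adjusted p = 0.023). Water mouse 2 lay inside the DSS vehicle range, and the call was lost without DSS vehicle mouse 1 or 5 or water mouse 4 or 5 (highest adjusted p 0.0624). Galnt3 rose by 0.34 ± 0.10 and Galnt1 by 0.26 ± 0.08 (adjusted p = 0.0312 and 0.0409), with all Galnt1 values of DSS vehicle mice (1.79 to 2.14) above those of water mice (1.54 to 1.73). The Galnt3 call was lost without DSS vehicle mouse 1, 3 or 4 or water mouse 1, 2 or 5, and the Galnt1 call without DSS vehicle mouse 1, 2 or 4, water mouse 2, 3, 4 or 5 or DSS filgotinib mouse 5. With arrays scaled to a common median the calls of Galnt12, Galnt3 and Galnt1 were lost. Those of Galnt3, Galnt1 and Galnt18 were also lost with scan day as a block.

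The other Galnt enzymes were not called. Galnt2 differed by 0.01 ± 0.08, Galnt4 by 0.07 ± 0.08, Galnt5 by 0.16 ± 0.08, Galnt6 by 0.14 ± 0.07, Galnt7, which prefers peptides that already carry GalNAc, by 0.16 ± 0.08, and Galnt10, another follow-up enzyme, by 0.12 ± 0.10. Galnt11 differed by -0.01 ± 0.11, Galnt14 by 0.06 ± 0.13, Galntl6 by -0.19 ± 0.20 and Galnt15, whose values spread widely between mice, by 0.70 ± 0.90. These are differences of log2 levels with their SE.

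Both genes of core 1 synthesis rose together. C1galt1, the core 1 galactosyltransferase, read 1.18, 1.04, 1.17, 1.19 and 1.09 in the water group, 1.61, 1.71, 1.26, 1.62 and 1.45 in the DSS vehicle group and 1.24, 1.21, 1.38, 1.57 and 1.34 in DSS filgotinib mice. C1galt1c1, the chaperone without which C1galt1 is not active, read 3.20, 3.01, 3.06, 3.12 and 2.91 in the water group, 3.61, 3.55, 3.23, 3.57 and 3.34 in the DSS vehicle group and 3.15, 3.05, 3.21, 3.57 and 3.32 in DSS filgotinib mice. For both genes the DSS vehicle values lay above all water values, and DSS vehicle mouse 3 was the lowest of its group. C1galt1 rose by 0.39 ± 0.09 (adjusted p = 0.0084) and C1galt1c1 by 0.40 ± 0.10 (adjusted p = 0.0164), and neither call was lost when any single mouse was left out. With arrays scaled to a common median both calls were lost. Within slide 4 the differences were 0.58 and 0.57.

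**Figure D2:**
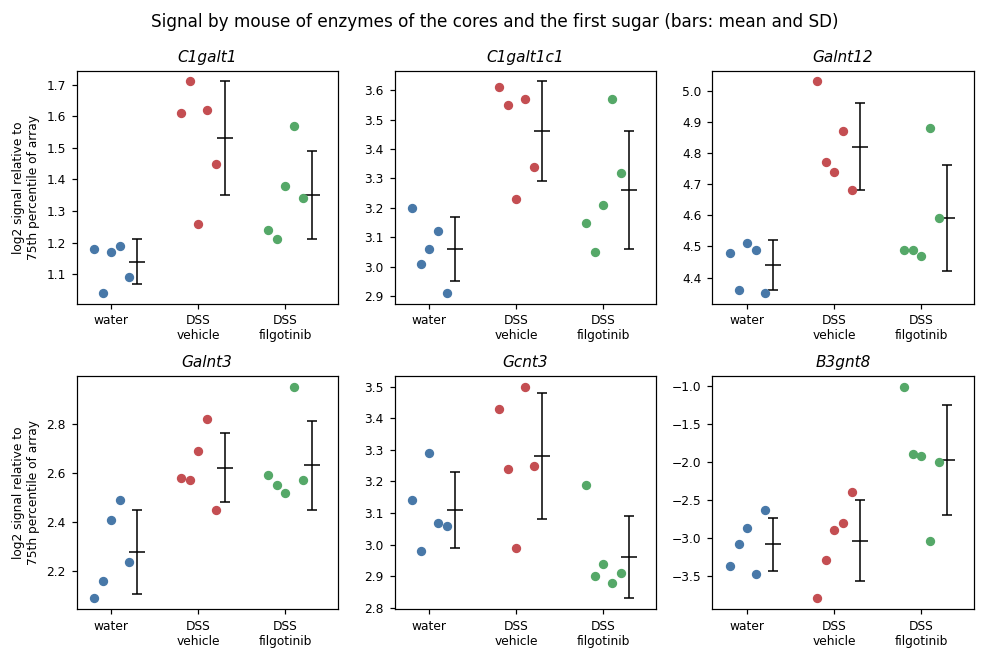
Log2 signal relative to the array's 75th percentile (y axis, a separate scale for each gene) of C1galt1, C1galt1c1, Galnt12, Galnt3, Gcnt3 and B3gnt8 in each mouse of the 3 groups (x axis); dots are mice and the bar beside them is the mean with SD. The 5 DSS vehicle mice stand above the 5 water mice for C1galt1, C1galt1c1 and Galnt12, and Gcnt3 is lower in 4 DSS filgotinib mice (2.88 to 2.94) than in every DSS vehicle mouse.

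Core 3 and branching enzymes held some of the larger rises. B3gnt6, the core 3 synthase, read -3.59, -3.57, -3.21, -3.41 and -3.31 in the water group and -2.15, -2.48, -2.31, -2.25 and -2.63 in DSS vehicle mice. The groups did not overlap, and the rise was 1.05 ± 0.19 (adjusted p = 0.00252), or 2.07-fold, with 0.77 within slide 4. Gcnt2, which forms I branches on lactosamine chains, read -0.20, -0.67, -0.48, -0.49 and -0.65 in the water group and 0.54, 0.43, 0.36, 0.65 and 0.13 in DSS vehicle mice. It rose by 0.92 ± 0.19 (adjusted p = 0.00504), or 1.89-fold, again without overlap, with 1.00 within slide 4, and its 2 dimmer probes gave 0.61 and 0.67 without reaching the threshold. Leaving out any single mouse ended neither call. Gcnt3, the mucin-type enzyme that makes core 2 and core 4 branches, differed by 0.17 ± 0.10 and Gcnt1, the leukocyte-type core 2 enzyme, by 0.15 ± 0.13, neither called. Of the extending enzymes, B3gnt3 (core 1 extension) differed by 0.24 ± 0.14, B3gnt7 (lactosamine extension for sulfated chains) by -0.02 ± 0.13 and B3gnt2 (polylactosamine) by -0.38 ± 0.15, none called, and the second B3gnt7 probe gave -0.39.

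Sialyltransferases gave the largest rise of any member. St3gal1, which caps core 1 with α2,3-linked sialic acid, read -2.07, -2.85, -2.50, -2.50 and -2.17 in the water group, -0.40, -1.23, -0.77, -0.86 and -0.61 in the DSS vehicle group and -2.27, -1.24, -0.93, -1.47 and -2.61 in DSS filgotinib mice. All DSS vehicle mice lay above all water mice, while the filgotinib mice ran from the water range to the DSS vehicle range. The rise in DSS vehicle mice was 1.64 ± 0.28 (adjusted p = 0.00177), or 3.13-fold, and 1.11 within slide 4. Its second probe gave 1.84 ± 0.37 in the fit over all probes (adjusted p = 0.00462). St6gal1, which adds α2,6-linked sialic acid mainly to N-glycans and is not a mucin-core enzyme, read 1.82, 1.34, 1.87, 1.61 and 1.64 in the water group and 2.71, 2.43, 1.93, 2.16 and 2.20 in DSS vehicle mice. It rose by 0.63 ± 0.14 (adjusted p = 0.00727) without overlap, whereas its second, dimmer probe, well above background on 9 arrays, gave 0.22 ± 0.20. St6galnac6, best known for sialylating gangliosides and Lewis-type chains, read 7.03, 6.94, 6.84, 7.03 and 6.86 in the water group and 7.34, 7.30, 7.49, 7.46 and 7.19 in DSS vehicle mice, a rise of 0.42 ± 0.11 (adjusted p = 0.0158) without overlap. The St6galnac6 call was lost with arrays scaled to a common median and with scan day as a block.

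St6galnac2, which adds α2,6-linked sialic acid to O-glycan cores, was the sialyltransferase that fell. It read 2.88, 2.99, 2.72, 2.67 and 2.94 in the water group and 2.46, 2.06, 2.19, 2.63 and 2.47 in DSS vehicle mice, a fall of -0.48 ± 0.14 (adjusted p = 0.0287) with no overlap. The call was lost without DSS vehicle mouse 2 or 3 or water mouse 1, 2 or 5 (highest adjusted p 0.0688), and its 2 dimmer probes gave -0.45 and -0.12. Of 11 other settings, 3 lost the St6galnac2 call, among them scan day as a block. St6galnac1, the goblet cell enzyme that makes sialyl-Tn, differed by 0.29 ± 0.14, St3gal3 by 0.21 ± 0.15 and St3gal6 by -0.06 ± 0.10, none called. St6galnac4, which makes disialylated core 1, differed by 0.00 ± 0.09 on its brightest probe, but a second probe, also well above background on all 15 arrays, gave -0.88 ± 0.23 (adjusted p = 0.0194 in the fit over all probes), and another gave 0.10 ± 0.23. St3gal4 and St6galnac3 were not measured.

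**Figure D3:**
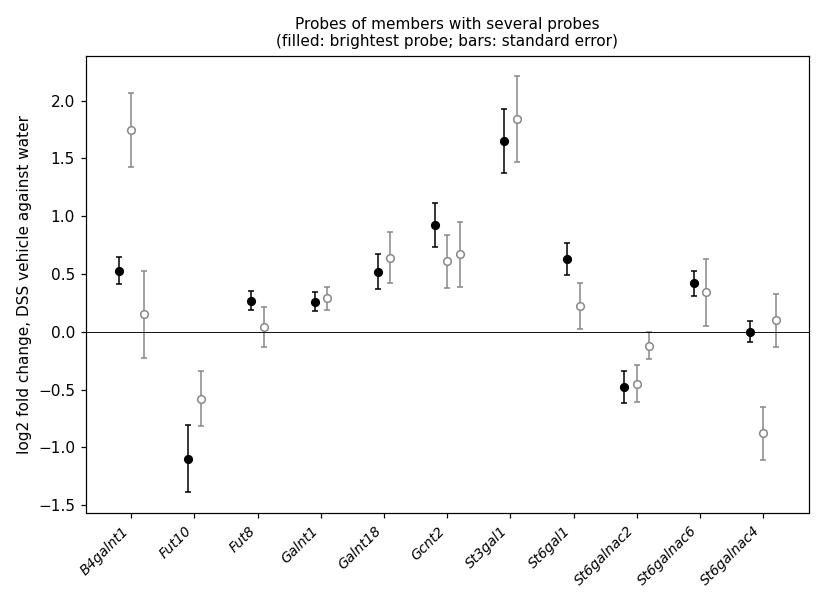
Log2 fold change in DSS vehicle against water (y axis, with SE) of every tested probe of the members that had several probes and a call, and of St6galnac4 (x axis); filled circles are the brightest probe of each gene and open circles the others. Probes of the 10 called genes share a sign, with the widest gap for B4galnt1 (0.15 to 1.75), while the St6galnac4 probes run from -0.88 to 0.10.

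The fucosyltransferases moved in both directions. Fut2, the secretor enzyme that puts α1,2-linked fucose on gut mucins, read -2.11, -1.69, -1.65, -1.73 and -1.89 in the water group, -0.50, -0.67, -1.13, -0.72 and -1.1 in the DSS vehicle group and -2.08, -1.80, -1.85, -1.20 and -1.91 in DSS filgotinib mice. Fut1, which makes the same linkage, read -2.54, -1.96, -2.38, -2.40 and -2.09 in the water group, -4.41, -3.96, -3.82, -3.48 and -3.34 in the DSS vehicle group and -2.27, -2.10, -2.22, -2.81 and -3.25 in DSS filgotinib mice. DSS vehicle mice were thus all above the water and filgotinib mice for Fut2 and all below them for Fut1. In DSS vehicle against water Fut2 rose by 0.99 ± 0.17 (adjusted p = 0.00156), or 1.98-fold, and Fut1 fell by 1.53 ± 0.23 on the log2 scale (adjusted p = 0.00101), a 2.88-fold lower level. Within slide 4 the differences were 1.1 for Fut2 and -1.73 for Fut1, and no left-out mouse ended either call.

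**Figure D4:**
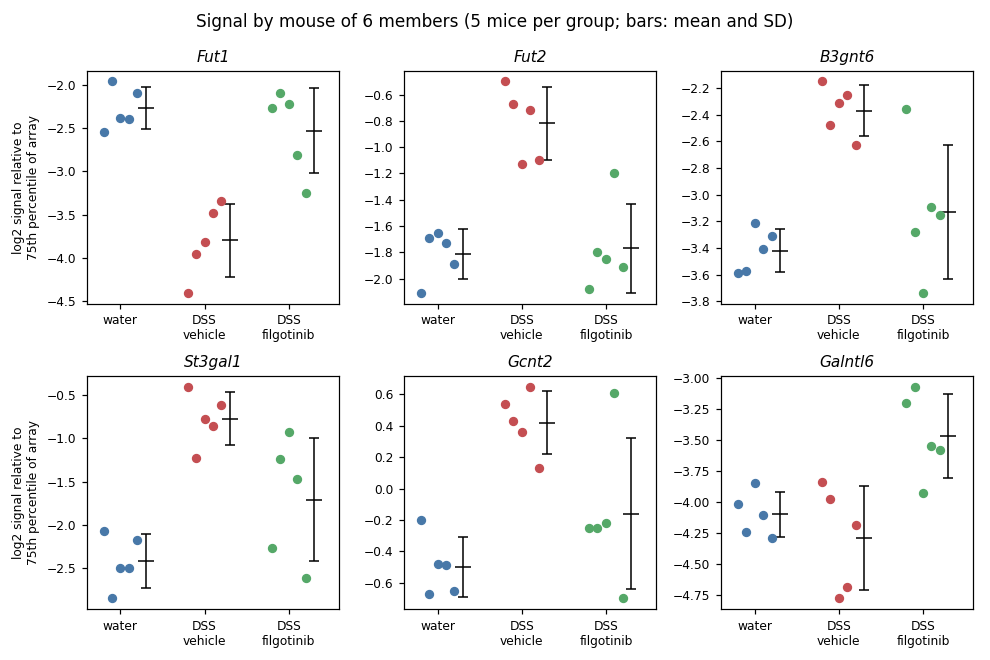
Log2 signal relative to the array's 75th percentile (y axis, a separate scale for each gene) of Fut1, Fut2, B3gnt6, St3gal1, Gcnt2 and Galntl6 in each mouse of the 3 groups (x axis); dots are mice and the bar beside them is the mean with SD. DSS vehicle mice are lowest for Fut1 (-4.41 to -3.34) and highest for Fut2 (-1.13 to -0.50), and DSS filgotinib mouse 4 is the highest filgotinib mouse for Fut2 and Gcnt2.

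Fut10 and Fut8 were also called. Fut10, a fucosyltransferase outside the mucin pathway, read -3.63, -3.20, -3.97, -3.80 and -3.63 in the water group and -4.89, -4.74, -5.17, -4.94 and -3.99 in DSS vehicle mice, where it was well above background on only 1 of 5 arrays. It fell by 1.1 ± 0.29 on the log2 scale (limma adjusted p = 0.0177) without overlap, and the values of the dim arrays are close to the detection limit. The Fut10 call was lost with scan day as a block. A second Fut10 probe, well above background on 6 arrays, gave -0.58 ± 0.24 and was not called (limma adjusted p = 0.104 over all probes). Fut8, which adds the core fucose of N-glycans, rose by 0.27 ± 0.08 (adjusted p = 0.0326) with overlapping groups (1.92 to 2.24 in water, 2.17 to 2.41 in DSS vehicle mice), and that call was lost without DSS vehicle mouse 1, 2, 3 or 4 or water mouse 1, 2, 4 or 5. It was also lost with arrays scaled to a common median. A second Fut8 probe, well above background on 15 arrays, gave 0.04 ± 0.17 (limma adjusted p = 0.894 over all probes). Fut4, an α1,3-fucosyltransferase of Lewis x structures, differed by -0.31 ± 0.15 and Fut9, another, by -0.23 ± 0.13, neither called. Fut7, which completes selectin ligands in leukocytes, was not measured.

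Among enzymes that add a terminal GalNAc, B4galnt1 rose and B4galnt2 did not pass the test. B4galnt1, which makes complex gangliosides and so acts on lipids, read -2.85, -2.69, -2.57, -2.56 and -2.30 in the water group and -1.82, -1.99, -2.04, -2.20 and -2.30 in DSS vehicle mice. The lowest DSS vehicle mouse was just above the highest water mouse, and the rise was 0.53 ± 0.12 (adjusted p = 0.0079). A second probe well above background on all arrays gave 1.75 ± 0.32 and another, on 9 arrays, 0.15 ± 0.38. B4galnt2, which makes the Sda antigen of the colon, differed by 0.48 ± 0.24 and B4galnt3 by -0.37 ± 0.13, neither called on the brightest probe, while the second B4galnt3 probe fell by 0.66 ± 0.15 on the log2 scale (adjusted p = 0.00937 over all probes).

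Of the sulfotransferases, 1 of 10 rose and 1 fell, and neither is a mucin enzyme by its known role. Chst10, which sulfates the HNK-1 epitope of neural and other glycoproteins, read -5.36, -6.07, -5.48, -6.41 and -4.89 in the water group and -4.09, -5.04, -4.13, -4.07 and -3.81 in DSS vehicle mice. The estimate was 1.42 ± 0.44 (adjusted p = 0.0382), but the probe was well above background on only 1, 3 and 1 arrays of the water, DSS vehicle and DSS filgotinib groups, the groups overlapped, and the difference within slide 4 was 0.15. The call was lost without any of DSS vehicle mice 1, 3, 4 and 5 or water mice 2, 3 and 4 (highest adjusted p 0.0983). Of 9 other settings, 7 also lost the Chst10 call. Chst8, a GalNAc-4-sulfotransferase of N-glycans, read -1.72, -1.51, -1.70, -1.92 and -1.32 in the water group and -2.46, -2.36, -1.99, -1.92 and -2.12 in DSS vehicle mice. It fell by 0.54 ± 0.15 on the log2 scale (adjusted p = 0.0241), with DSS vehicle mouse 4 next to water mouse 4, and the call was lost without DSS vehicle mouse 1 or 2 or water mouse 2 or 5. The GlcNAc-6-sulfotransferases of mucins did not pass the test: Chst4 differed by -0.16 ± 0.11, and Chst5, the intestinal enzyme, by -1.08 ± 0.42 with DSS vehicle values from -6.22 to -3.50.

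The second comparison asked how the members differed between DSS mice with and without filgotinib. It shares the DSS vehicle mice with the first comparison, and the values of each are given side by side without a test of their relation. Of 59 members, 3 rose, or 5.08%, beside 6.79% of all genes, and 5 fell, or 8.47%, beside 4.53% of all genes. The median was -0.06 for members and 0.00 for all genes. With arrays scaled to a common median 3 rose and 2 fell, so the share of rises was 60% in place of 37.5%, while over all genes it was 73.6% in place of 60%, with 6.91% called higher and 2.48% lower. Of the 8 calls, those of Fut1, Fut2 and Galntl6 held when any single mouse was left out. With the slide as a block only the rises of Fut1 and Galntl6 remained called, while 1.06% of all genes were called higher and 0.922% lower. In a fit of the 2 groups alone the Galntl6 call was lost and the Fut1 call held.

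Fut1 was higher with filgotinib by 1.27 ± 0.23 (adjusted p = 0.00515), or 2.41-fold, and Fut2 lower by 0.94, with a log2 change of -0.94 ± 0.17 (adjusted p = 0.00428), or 1.93-fold. For both genes no filgotinib mouse overlapped a DSS vehicle mouse, as was the case for 7.99% of all genes. Within slide 2 the differences were 1.56 for Fut1 and -1.17 for Fut2, and the blocked adjusted p was 0.0457 for Fut1 and 0.0511 for Fut2. Against water, filgotinib mice differed by -0.26 ± 0.23 for Fut1 and 0.04 ± 0.17 for Fut2, neither called, with intervals from -0.76 to 0.24 and from -0.31 to 0.40.

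B3gnt6 fell with filgotinib by 0.76 ± 0.19 on the log2 scale (adjusted p = 0.0225). Its values in filgotinib mice were -2.36, -3.28, -3.74, -3.09 and -3.15, so mouse 1 stayed in the DSS vehicle range and the other 4 lay below it. The call was lost without DSS filgotinib mouse 2 or 5 or DSS vehicle mouse 1 (highest adjusted p 0.0617). It was also lost in 6 of 11 other settings. These were a common median, quantile normalization, no filter on dim probes, the 2 groups alone, and scan day or slide as a block. St3gal1 fell by 0.94 on the log2 scale, with a change of -0.94 ± 0.28 (adjusted p = 0.0473), but was lost without any mouse other than DSS vehicle mouse 2 or DSS filgotinib mouse 3 (highest adjusted p 0.115). Of 11 other settings, 4 lost the St3gal1 call. Filgotinib mouse 3 lay among the DSS vehicle mice and mouse 2 just below them, and mice 1 and 5 lay in the water range. Within slide 2 the differences were -0.48 for B3gnt6 and -1.14 for St3gal1. The second St3gal1 probe gave -0.80 ± 0.37 in the fit over all probes and was not called (adjusted p = 0.18).

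The remaining falls were those of Gcnt3 and Chst15. Gcnt3, the core 2 and core 4 branching enzyme, read 3.43, 3.24, 2.99, 3.50 and 3.25 in the DSS vehicle group and 3.19, 2.90, 2.94, 2.88 and 2.91 in the filgotinib group, a change of -0.32 ± 0.10 (adjusted p = 0.0489). It was lost without any mouse other than water mouse 3, DSS vehicle mouse 3 or DSS filgotinib mouse 1. Of 11 other settings, 6 also lost the Gcnt3 call. A second Gcnt3 probe, well above background on 15 arrays, gave -0.19 ± 0.10 in the fit over all probes and was not called (adjusted p = 0.241). Chst15, which sulfates chondroitin and so acts on proteoglycans, read 0.71, -0.16, 0.67, -0.18 and 0.41 in the DSS vehicle group and 0.06, -0.73, -0.41, -0.24 and -0.79 in the filgotinib group, a change of -0.71 ± 0.21 (adjusted p = 0.0421). The Chst15 groups overlapped, and the call was lost without DSS vehicle mouse 1, 3 or 5, water mouse 1, 2 or 5 or DSS filgotinib mouse 2, 3 or 5. The Chst15 call was also lost in 6 of 11 other settings. Gcnt2, at -0.25, -0.25, -0.22, 0.61 and -0.70 in filgotinib mice, differed from DSS vehicle mice by -0.58 ± 0.19 and did not pass the test (adjusted p = 0.0602). It was called without DSS filgotinib mouse 4, the mouse in the DSS vehicle range.

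The other rises were those of Galntl6 and B3gnt8. Galntl6, a GalNAc-transferase relative, read -3.84, -3.98, -4.78, -4.69 and -4.19 in DSS vehicle mice, 2 of them well above background, and -3.20, -3.07, -3.93, -3.55 and -3.58 in filgotinib mice. It rose by 0.83 ± 0.20 (adjusted p = 0.0173), with DSS filgotinib mouse 3 overlapping DSS vehicle mouse 1, and 1.1 within slide 2. B3gnt8, which extends lactosamine chains of N-glycans, read -3.79, -3.28, -2.89, -2.80 and -2.39 in the DSS vehicle group and -1.01, -1.90, -1.92, -3.03 and -2.0 in the filgotinib group. It rose by 1.06 ± 0.32 (adjusted p = 0.0493), with filgotinib mouse 4 inside the DSS vehicle range, and the call was lost without any mouse other than DSS vehicle mouse 5 or DSS filgotinib mouse 4. Of 11 other settings, 6 also lost the B3gnt8 call.

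The third comparison set DSS mice with filgotinib against water mice. Of 59 members, 2 rose, or 3.39%, beside 6.42% of all genes, and 0 fell in limma, beside 3.41% of all genes (12 higher and 1 lower at an unadjusted p under 0.05). The member median was 0.08 and that of all genes 0.05. Galnt3 rose by 0.35 ± 0.10 (adjusted p = 0.0435), from 2.09, 2.16, 2.41, 2.49 and 2.24 in water mice to 2.59, 2.55, 2.52, 2.95 and 2.57 with filgotinib, without overlap, as for 9.57% of all genes. The DSS vehicle mice had a similar Galnt3 range, 2.45 to 2.82. B3gnt8 rose by 1.11 ± 0.32 (adjusted p = 0.0452), from -3.36, -3.08, -2.87, -3.47 and -2.63 in water mice. The Galnt3 call was lost without DSS vehicle mouse 1 or 2, water mouse 1, 2 or 5 or DSS filgotinib mouse 1, 2, 4 or 5, and the B3gnt8 call without any mouse other than DSS vehicle mouse 1 or 5 or DSS filgotinib mouse 4. Of 11 other settings, 6 lost the Galnt3 call and 8 the B3gnt8 call. No slide held both groups, so no within-slide value exists.

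Some dimmer probes gave calls that the brightest probe of their gene did not. In the fit over all probes, the second St6galnac4 probe differed by 0.91 ± 0.23 in filgotinib against DSS vehicle (adjusted p = 0.0263), where the brightest gave -0.20 ± 0.09. In filgotinib against water the second B3gnt7 probe differed by -0.92 ± 0.17 (adjusted p = 0.0105) and the second Galnt10 probe by 0.44 ± 0.07 (adjusted p = 0.00663), where the brightest probes gave -0.05 ± 0.13 and 0.30 ± 0.10. Which transcripts of these genes each probe reads was not analysed here.

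The pooled SD within groups was widest for Galnt15, Chst1 and Chst12 (1.54, 1.05 and 0.97, beside a median of 0.23 over members), none of them called, and these genes were picked after their values were seen. Galnt15 read -4.35, -4.47, -3.46, -4.66 and -1.14 in the DSS vehicle group and -6.53, -3.33, -1.73, -5.31 and -6.07 in the filgotinib group. Chst1, which sulfates keratan-type chains, read -1.20, -1.77, -0.53, -0.84 and 0.65 in the DSS vehicle group and -2.66, -0.75, 0.70, -1.55 and -2.47 in the filgotinib group. St3gal2, which caps core 1-type chains of gangliosides and ranked 8 in spread (SD 0.62), read -2.65, -3.65, -3.06, -3.33 and -1.84 and then -3.84, -3.09, -2.04, -3.32 and -3.63. For these 3 genes and Chst12, DSS vehicle mouse 5 and DSS filgotinib mouse 3 were the highest of their groups. That was not so for Chst2, Chst3, Chst10 and Chst5, which ranked between Chst12 and St3gal2 and of which Chst10 was a called rise: DSS filgotinib mouse 3 was the highest of its group for none of them. DSS vehicle mouse 5 and DSS filgotinib mouse 3 had the highest sums of 11 endothelial markers, 12.3 and 10.5, where the other 13 mice had 2.86 to 5.97. Their stromal sums were 117 and 102, but DSS vehicle mouse 1 had 121. In all, 5 of 59 members (8.47%) were highest in both mice, beside 5.75% of all genes, and the part of endothelial or stromal RNA in these values was not tested.

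**Figure D5:**
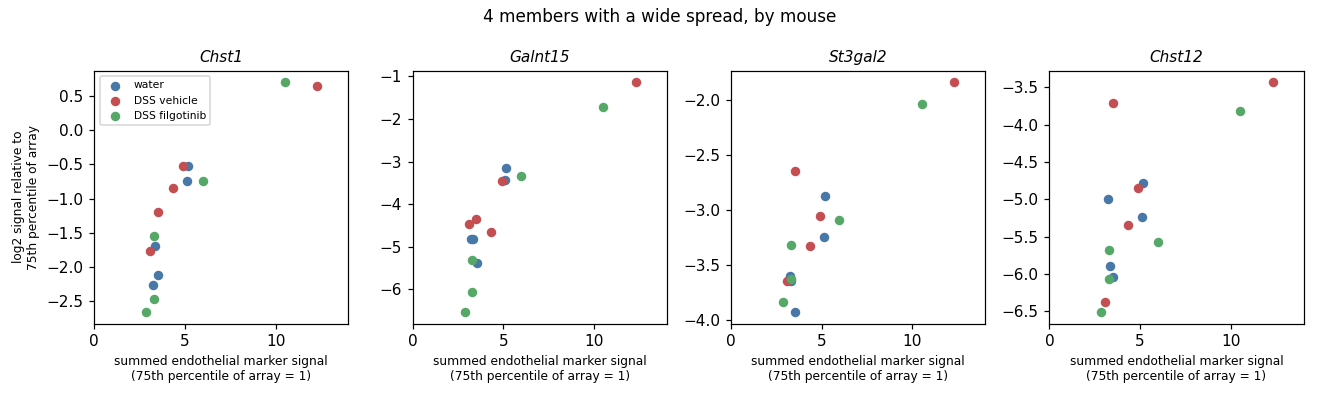
Log2 signal relative to the array's 75th percentile (y axis, a separate scale for each gene) of Chst1, Galnt15, St3gal2 and Chst12 against the summed signal of 11 endothelial markers (x axis, array's 75th percentile as 1), 1 dot per mouse coloured by group. The dots at sums of 12.3 and 10.5 are DSS vehicle mouse 5 and DSS filgotinib mouse 3 and are the highest of their groups in every panel; the genes were picked for this among the 8 with the widest spread.

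Other genes of the pathway were read from lists. Of all genes tested, 10.8% rose and 8.41% fell with DSS. With filgotinib 6.79% rose and 4.53% fell against DSS vehicle, and 6.42% rose and 3.41% fell against water. Of 9 mucin genes measured, Muc2, the gel-forming mucin of the colon, rose in DSS vehicle against water by 0.34 ± 0.09 (adjusted p = 0.0175), while the membrane mucins Muc4 and Muc1 fell, with changes of -1.03 ± 0.17 and -0.61 ± 0.14, and the list median was 0.20 beside 0.05 for all genes. With filgotinib against DSS vehicle 1 of 9 was called, Muc4 at 1.06 ± 0.17 (adjusted p = 0.00295), and against water 1, Muc1 at -0.71 ± 0.14. Of 28 genes that make or carry sugar and sulfate donors, 6 rose and 3 fell with DSS. The larger changes were Slc35d1, a nucleotide-sugar carrier (0.47 ± 0.09), and Gmds, the first enzyme of GDP-fucose synthesis (0.42 ± 0.10), against Nanp of sialic acid synthesis (-0.50 ± 0.14) and the galactose kinase Galk1 (-0.46 ± 0.11). With filgotinib against DSS vehicle 2 of 28 rose, Galk1 (0.55 ± 0.11) and the sulfate donor enzyme Papss1 (0.28 ± 0.09), and against water 5 rose, led by Gmds (0.50 ± 0.10) and Slc35d1 (0.37 ± 0.09).

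Among 15 other elongating and capping enzymes, 2 rose with DSS, beside 10.8% of all genes. The 2 were B3galt5, which makes type 1 chains (0.73 ± 0.11, limma adjusted p = 0.00082), and the ganglioside sialyltransferase St8sia5 (1.22 ± 0.36). St8sia5 fell with filgotinib against DSS vehicle (-1.42 ± 0.36, adjusted p = 0.0219), and B3galt5 was above water with filgotinib too (0.54 ± 0.11). Of 17 glycan-degrading genes 5 rose and 2 fell with DSS, beside 10.8% and 8.41% of all genes. The largest rises were those of the heparan sulfate sulfatases Sulf2 (2.26 ± 0.47) and Sulf1 (1.54 ± 0.25). The galactosidase Glb1 was among those that fell (-0.22 ± 0.06). With filgotinib against DSS vehicle 3 of 17 rose, beside 6.79% of all genes, led by the sialidase Neu3 (0.65 ± 0.20). Of 6 selectins and scaffolds of their ligands measured, Glycam1 rose with DSS (1.32 ± 0.39, adjusted p = 0.031).

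The members not measured numbered 17. They were B3gnt4, Chst7, Chst9, Chst11, Chst13, Fut7, Galnt9, Galnt13, Galnt16, Galntl5, Gcnt4, Gcnt7, St3gal4, St3gal5, St6gal2, St6galnac3 and St6galnac5. Closest to the limit of 5 arrays were St3gal5, well above background on 4 arrays, and St6gal2 on 3, and just inside it were Chst2, Chst10 and Chst12, each on 5. Chst2, a GlcNAc-6-sulfotransferase of selectin ligands, differed by 0.88 ± 0.56 between DSS vehicle and water mice and was not called.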

How the data were processed

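Each of the 15 scanner files holds, per the file headers, spot intensity that Agilent Feature Extraction 11.5.1.1 had corrected for background inside the array and not between arrays. The deposited log2 table holds the authors' values of 32299 probes. Its columns correlated with their own array at r of 0.9988 to 0.9997 across probes and had medians of 8.839 to 8.857, and how it was normalized is not given in the sources used here. Besides this software limma is named, per the submitters' processing notes. The files' flags (other) mark outliers and signal well above background, per the file headers.

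Values were log2 of the processed intensity minus log2 of the array's 75th percentile. Of 56605 probes without control spots, 101 with an outlier mark were left out, and no spot was saturated. Each gene was represented by its brightest probe well above background on at least 5 of 15 arrays. Names came from the array files and RefSeq (GRCm38.p6), and the names of all members equal RefSeq symbols. Groups were compared with limma 3.58.1 in R 4.3.3, two-sided, in 1 fit over all arrays, with Benjamini-Hochberg adjustment over 22012 genes. The number of arrays limits the precision.

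Named genes are every member called in any comparison, a fixed set of O-glycan enzymes and, for each list, the 2 largest changes among called genes in each direction. The members, lists and tests were chosen with earlier results of these data known, and patterns already seen then are not independent support. Marker lists were summed without members. The code was tested on simulated data. Python 3.11.15 (pandas 2.3.3, numpy 2.4.6) made the tables and matplotlib 3.10.9 the figures. Alternatives covered scaling, background, probe filter, the deposited table, slide, scan day and replicate as blocks, and each mouse left out.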

Additional observations from a re-analysis of the deposited data

Results flagged for a closer look

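Among 44 named genes in 3 groups each, 10 of 132 groups held a mouse whose gap to its nearest group mate exceeded Dixon's 95% limit for 5 values, and chance alone gives about 1 in 20. All values are log2 signal relative to the array's 75th percentile.

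Of these mice, 2 were in the water group. Water mouse 1 read 1.55 for B3gnt7, below the 2.10 to 2.20 of the other water mice, and water mouse 3 read -3.14 for Chst5, above their -3.97 to -3.76.

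In the DSS vehicle group, mouse 1 read 2.14 for Fut4 (the others 2.62 to 2.68), mouse 2 read -5.04 for Chst10 (the others -4.13 to -3.81) and mouse 3 read 2.97 for St3gal6 (the others 3.18 to 3.24). The Chst10 reading belongs to a probe near its detection limit.

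The DSS filgotinib group held 5. Mouse 1 read 2.19 for B3gnt2 (the others 1.76 to 1.88) and 3.19 for Gcnt3 (the others 2.88 to 2.94), so the Gcnt3 difference from DSS vehicle was smallest in that mouse. Mouse 4 read 2.95 for Galnt3 (the others 2.52 to 2.59) and 5.18 for St3gal3 (the others 4.45 to 4.60). Mouse 2 read 1.69 for St6gal1 (the others 1.99 to 2.10).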

How the results depend on the processing

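Member counts were 15 higher and 4 lower in DSS vehicle against water, 3 and 5 in DSS filgotinib against DSS vehicle, and 2 and 0 in DSS filgotinib against water, and no named gene that was called reversed its sign under any setting tried. With single mice left out, the counts ran from 10 to 15 and 2 to 5, from 2 to 5 and 1 to 7, and from 0 to 4 and 0 to 0. With the slide as a block they were 0 and 0, 2 and 0, and 0 and 0 (at an unadjusted p under 0.05 in limma 7 and 5 in the first, 12 lower in the second, and 1 and 2 in the third). With scan day as a block, filgotinib against DSS vehicle had 3 lower and filgotinib against water 1 higher, beside 5.18% and 6.7% of all genes. Scaling to a common median gave 8 higher in DSS vehicle against water, 2 lower in filgotinib against DSS vehicle and 0 higher against water (10 unadjusted). The shares of all genes with that scaling were 4.34%, 2.48% and 1.15% in the same order. Quantile normalization gave 0 higher in filgotinib against water (8 unadjusted), where the share of all genes called higher was also smaller than in the reported fit. Without a filter on dim probes, filgotinib against DSS vehicle had 1 lower and filgotinib against water 9 higher. Those 9 were a smaller share of the 76 members tested there than the share of all genes called higher. Of all genes called in that setting against water, 87.4% were rises, in place of 65.3%. A fit of the 2 groups alone gave 1 higher and 1 lower against DSS vehicle and 0 higher against water (12 unadjusted). The shares of all genes called in these fits were also smaller than in the reported fit. The deposited log2 table gave 1 higher in filgotinib against water, beside 2.81% of all genes. Testing every probe gave 1 lower there, beside 4.06% of all probes tested. The causes of these shifts were not tested. Leaving out DSS vehicle mouse 5 and DSS filgotinib mouse 3, a choice made after seeing the data, gave 3 lower in filgotinib against DSS vehicle. The share of all genes called lower there was 4.05%. With a replicate block, filgotinib against water had 1 higher, and the other counts were 14 and 4, then 2 and 4; the replicate numbers did not pair the mice, since deviations of same-numbered mice correlated at -0.516 to 0.532 and 1 of 15 mice correlated best with its own number. Dim members such as Chst10, Fut10 and Galntl6 are limited by signal over background.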
